A study of Mus musculus with 6 samples.

Results

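The 9 interferon-stimulated genes Ifit1, Ifit2, Ifit3, Isg15, Irf7, Oasl2, Rsad2, Usp18 and Bst2 were followed in white adipose tissue of mice. They were picked by name from the 21959 rows of the deposited expression table, where each symbol occurs once, and all 9 passed the filter on low counts that left 13566 genes for testing. RNA sequencing covered 3 libraries of wild-type (WT) mice, with the replicate numbers 10, 11 and 12, and 3 libraries of the genotype labelled ++Oxtr, with the numbers 7, 8 and 9. The submitters' design text calls it gonadal fat and asks how the oxytocin receptor acts on adipose development and energy metabolism. The labels give no treatment, age, sex or strain, and they do not describe the construct, promoter or target cell type behind the name ++Oxtr. Nothing in them says that replicates are separate animals, so p-values measure the spread between these libraries, which may be technical.

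Interferons are secreted proteins that cells release when they sense foreign or misplaced nucleic acid. Type I interferon binds the receptor formed by Ifnar1 and Ifnar2, the kinases Jak1 and Tyk2 are activated, and the transcription factor complex ISGF3, which holds Stat2 and Irf9, binds interferon-stimulated response elements in promoters and switches on a shared set of antiviral genes. In white fat, macrophages, endothelial cells and adipocytes all carry interferon receptors. In bulk tissue, fewer cells of a type and less RNA per cell cannot be told apart.

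The members' places in the genome are given on GRCm38 from GENCODE M21, because the table's own coordinates differ from that assembly for all 9. Ifit2 (chromosome 19, 34550694 to 34576419), Ifit3 (34583531 to 34588731) and Ifit1 (34640871 to 34650009) lie in one cluster on the plus strand. Isg15 lies on chromosome 4 (156199424 to 156200818, minus strand), Usp18 on chromosome 6 (121245906 to 121270917, plus strand), Irf7 on chromosome 7 (141262706 to 141266481, minus strand) and Bst2 on chromosome 8 (71534255 to 71537456, minus strand). Oasl2 lies on chromosome 5 (114896936 to 114912234, plus strand) and Rsad2 on chromosome 12 (26442746 to 26456452, minus strand). All are annotated as protein coding. Irf7 shares exon sequence with Phrf1 on the other strand and Usp18 with Gm44148. The strand setting of the counting is not given in the sources used here, so reads of these pairs cannot be told apart.

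The promoter sequences show what several of the members have in common apart from their names. The 250 bases before the RefSeq start sites (GRCm38.p6) were searched on both strands for the core of the interferon-stimulated response element, GAAA followed after any 2 bases by GAAA, with overlapping matches allowed. Of the 8 members with a promoter in the RefSeq table, 5 held at least 1 match: Isg15, Bst2, Rsad2, Ifit3 and Ifit1. Of the 27025 genes of that table, 3.46% held one, and of its 32851 promoters 2.98%. The letters were not found in these windows of Ifit2, Oasl2 and Irf7. In a window of Ifit2, 185 of the 250 bases lay in an exon of that gene, while another window of Ifit2 had 0 such bases. The window of Irf7 held 57 bases in an exon of Irf7. That of Ifit1 held 123 bases in exons, with its matches outside them. The gamma-activated sequence TTCNNNGAA was found for Ifit2 and Bst2, against 8.13% of all genes and 7.02% of all promoters. The 5 stretches with a match follow, 5′ to 3′ on the strand of the gene, with the matches in capitals and up to 20 bases on each side. None of the bases shown lies in an annotated exon.
Isg15 (chr4:156200855-156200916, minus strand): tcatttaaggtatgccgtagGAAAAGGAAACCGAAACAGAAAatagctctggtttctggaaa
Bst2 (chr8:71537567-71537622, minus strand): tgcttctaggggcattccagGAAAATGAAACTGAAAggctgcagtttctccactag
Rsad2 (chr12:26456543-26456592, minus strand): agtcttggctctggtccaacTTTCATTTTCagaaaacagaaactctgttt
Ifit3 (chr19:34583353-34583436, plus strand): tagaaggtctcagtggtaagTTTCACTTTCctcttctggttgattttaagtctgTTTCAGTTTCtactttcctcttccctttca
Ifit1 (chr19:34640765-34640833, plus strand): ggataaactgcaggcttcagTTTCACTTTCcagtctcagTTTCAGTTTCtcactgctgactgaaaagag

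Isg15 held 3 overlapping matches, in a stretch shown from 98 to 37 bases before its start, and Bst2 held 2 overlapping ones. Ifit3 and Ifit1 held 2 separate matches each, read on the strand shown as TTTC, any 2 bases and TTTC, and Rsad2 held 1. A match describes the letters and is no evidence that a factor was bound there.

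Libraries held 14314517 to 19186696 counts. Oxtr itself was at 22.0, 61.4 and 45.2 CPM (counts scaled to a common library total with TMM factors) in WT replicates 10, 11 and 12 and at 90.7, 89.7 and 81.8 CPM in ++Oxtr replicates 7, 8 and 9. The groups did not overlap, and its log2 fold change of 1.03 (SE 0.34) had an edgeR adjusted p of 0.469. Adipocyte genes were abundant in every library, with a summed level of 8 markers between 26235 and 33690 CPM. Libraries that stood apart in markers of other cells were ++Oxtr replicate 8, with 147 CPM over 12 multiciliated epithelium genes against 7.67 to 36.0 CPM in the other libraries, and ++Oxtr replicate 9, in markers of immune cells.

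All 9 members were expressed in every library. Per gene length, in FPKM (reads scaled by gene length and library total), Bst2 was the most abundant at 61.6 ± 12.5 (SD, n = 6), and Usp18 the least at 3.03 ± 0.80. Between them came Ifit3 at 18.7, Irf7 at 14.7, Isg15 at 14.5, Ifit2 at 8.17, Ifit1 at 7.80, Oasl2 at 6.78 and Rsad2 at 5.08 FPKM. Bst2 lay above Ifit3 in each library with no overlap of their ranges, since its lowest library was at 48.6 FPKM and the highest of Ifit3 at 24.5. The other neighbours in this order overlapped in their ranges, and Irf7 lay above Isg15 in 3 of 6 libraries. The length used for Irf7, 3776 bases, equals its whole gene span, introns included, so its FPKM is low for its count. Ifit3 shares 51.2% of its stretches of 50 bases with its neighbour copy Ifit3b, and reads could be split between them, so its level is uncertain. Ifit1 shares 7.14% with other genes, mostly with Ifit1bl2.

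The level of these genes did not separate the genotypes. None of the 9 passed an adjusted p of 0.05 by edgeR's quasi-likelihood test, where 0% of the 13566 genes passed, and none was under an unadjusted p of 0.05, where 8.91% of all genes were. The groups overlapped in all 9, while 15.1% of all genes tested did not overlap. The exact 2-sided permutation test gave p between 0.4 and 0.8 for the members, with 0.1 the smallest that 3 against 3 libraries allow. In each of the 9 the group means differed by less than the larger of the SDs of both groups.

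**Figure D1:**
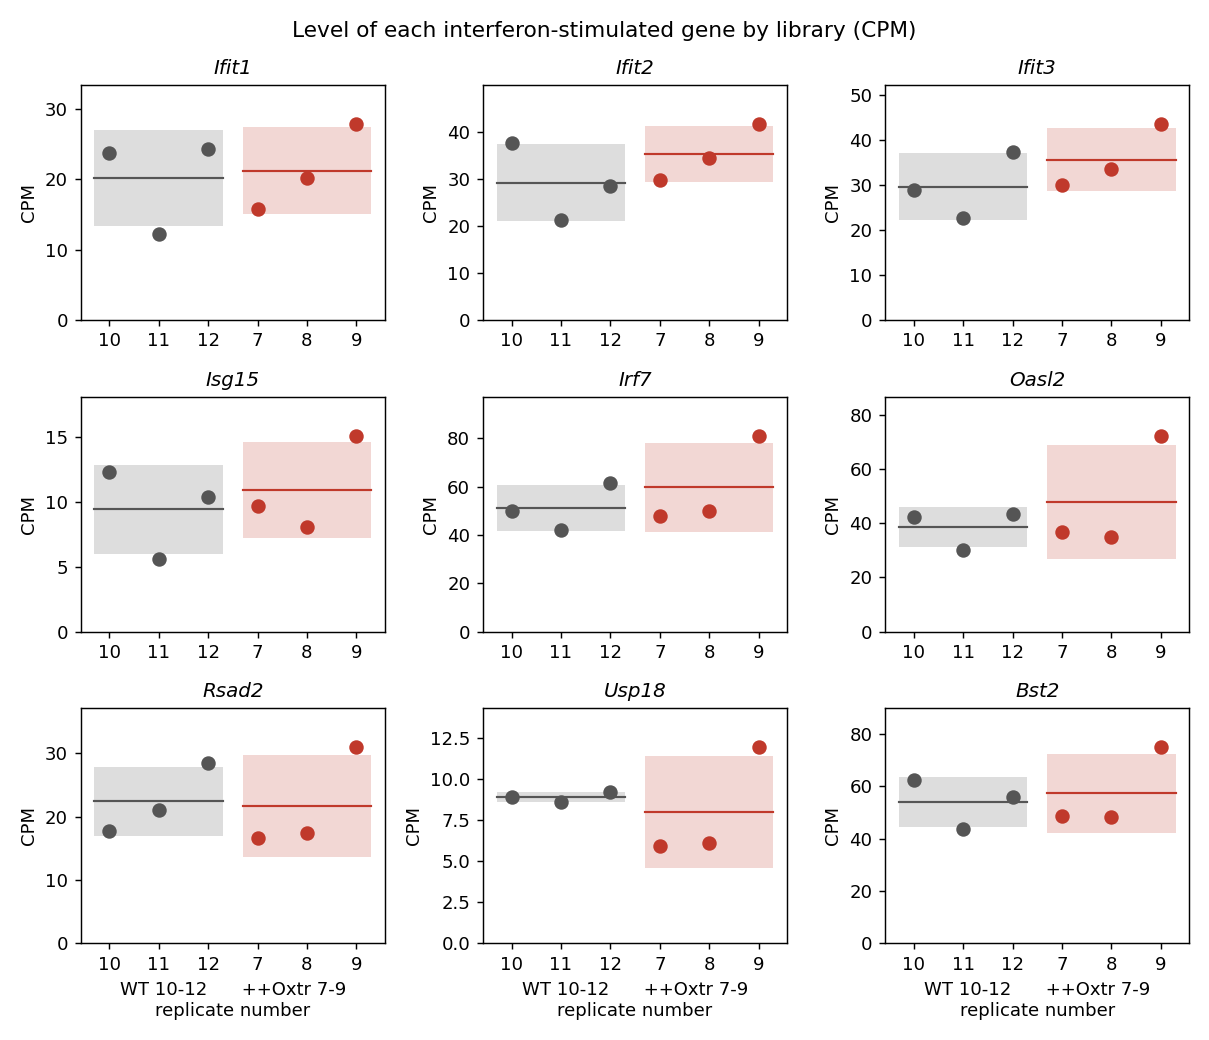
Level of each of the 9 genes in CPM on a linear axis from 0, by library, with WT replicates 10 to 12 in grey and ++Oxtr replicates 7 to 9 in red. Lines are group means and bands 1 SD (n = 3). In each panel ++Oxtr replicate 9 is the highest point, and the remaining ++Oxtr points lie below the highest WT point.

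Irf7 is the transcription factor that amplifies type I interferon production and is itself induced by interferon. It was at 50.1, 42.1 and 61.3 CPM in WT replicates 10, 11 and 12 and at 47.9, 49.9 and 81.0 CPM in ++Oxtr replicates 7, 8 and 9. Only the last of these lay above the WT libraries. Its log2 fold change, ++Oxtr over WT, was 0.22 (SE 0.23, edgeR adjusted p = 0.824).

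The Ifit genes encode tetratricopeptide proteins, of which Ifit1 binds viral RNA that lacks the cap methylation of the host. Ifit1 was at 23.8, 12.3 and 24.4 CPM in WT replicates 10, 11 and 12 and at 15.7, 20.2 and 27.9 CPM in ++Oxtr replicates 7, 8 and 9. WT replicate 11 was the lowest library, and ++Oxtr replicates 7 and 8 lay between the WT libraries. The group means were 20.2 ± 6.83 and 21.3 ± 6.15 CPM (SD, n = 3), a log2 fold change of 0.07 (SE 0.31).

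Ifit2 was at 37.6, 21.3 and 28.4 CPM in WT and at 29.7, 34.3 and 41.6 CPM in ++Oxtr, in the same order of replicates. Ifit3 was at 28.9, 22.7 and 37.4 CPM in WT and at 30.0, 33.5 and 43.6 CPM in ++Oxtr. In both genes WT replicate 11 was the lowest library and 2 of the 3 ++Oxtr libraries lay inside the WT range. Both had a log2 fold change of 0.27, with edgeR adjusted p of 0.748 and 0.742. Ifit3b, the near-identical copy of Ifit3, was at 6.13, 6.31 and 10.4 CPM in WT and at 8.93, 10.7 and 15.0 CPM in ++Oxtr. It did not pass either (log2 fold change 0.60, SE 0.28, edgeR adjusted p = 0.584).

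Oasl2 belongs to the family of oligoadenylate synthetases, which respond to double-stranded RNA. It had the largest log2 fold change of the 9, 0.31 (SE 0.31, edgeR adjusted p = 0.807). Its levels were 42.3, 30.1 and 43.3 CPM in WT and 36.9, 34.8 and 72.3 CPM in ++Oxtr. A single ++Oxtr library was above WT, and the other two lay inside its range.

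Rsad2 encodes viperin, a radical SAM enzyme that makes a chain-terminating nucleotide, and Bst2 encodes tetherin, which holds budding virus particles at the cell surface. Rsad2 was at 17.7, 21.0 and 28.4 CPM in WT and at 16.6, 17.3 and 30.9 CPM in ++Oxtr, with a log2 fold change of -0.05 (SE 0.29). Bst2 was at 62.4, 43.6 and 56.0 CPM in WT and at 48.8, 48.2 and 74.9 CPM in ++Oxtr, with one of 0.08 (SE 0.21). In each gene the ++Oxtr group held both a library above all WT libraries and a pair in the lower part of the WT range or under it.

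Isg15 is a ubiquitin-like protein that is joined to other proteins after interferon exposure, and Usp18 removes it and also blocks the type I receptor. Isg15 was at 12.3, 5.62 and 10.4 CPM in WT and at 9.72, 8.04 and 15.1 CPM in ++Oxtr, a log2 fold change of 0.21 (SE 0.34). It had the widest range of the members, 2.69-fold from the lowest to the highest library. Usp18 was at 8.90, 8.60 and 9.24 CPM in WT and at 5.95, 6.13 and 11.9 CPM in ++Oxtr, a log2 fold change of -0.16 (SE 0.28). The 3 WT libraries were close together in Usp18, while ++Oxtr replicates 7 and 8 lay under them and ++Oxtr replicate 9 above.

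The 95% intervals of these fold changes say what size of difference the libraries leave possible. They ran from 0.843-fold to 1.73-fold for Ifit2, from 0.741-fold to 2.08-fold for Oasl2 and from 0.567-fold to 1.42-fold for Usp18, the last being the lowest limit of the 9. For Bst2 they ran from 0.752-fold to 1.49-fold. A p that misses the threshold does not show that the genotypes were alike. These genes also varied more than most between replicates. The biological coefficient of variation was 0.187 to 0.303 in the members, with a median of 0.252, against a median of 0.153 over all genes tested.

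**Figure D2:**
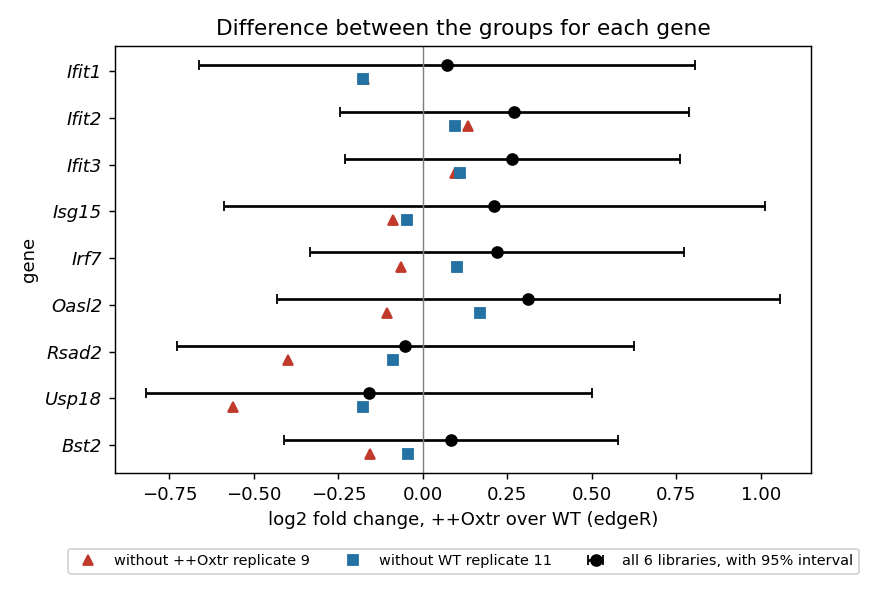
Log2 fold change of ++Oxtr over WT by edgeR for each gene, as black points with the 95% interval for all 6 libraries, red triangles without ++Oxtr replicate 9 and blue squares without WT replicate 11. Every interval crosses 0. Without ++Oxtr replicate 9 only Ifit2 and Ifit3 stay on the higher side.

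The side on which most members fell depended on single libraries. With all libraries 7 of the 9 had a log2 fold change above 0, with a median of 0.21, against 50.8% of all genes and a median of 0.00 (0.00398). Without ++Oxtr replicate 9 the count was 2 of 9 and the median -0.11. Without WT replicate 11 the count was 4 of 9 and the median -0.04. Without ++Oxtr replicate 7 it was 9 of 9, with a median of 0.29. In each of these fits 0 members passed the adjusted threshold. Without ++Oxtr replicate 9, Usp18 was at -0.56 with an edgeR unadjusted p of 0.0137 (adjusted p = 0.426). Without WT replicate 10, Ifit2 was at 0.50 with an edgeR unadjusted p of 0.0381 (adjusted p = 0.570).

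Differences ran between single libraries. Each of the 9 members was highest in ++Oxtr replicate 9, which was the highest library for 21.1% of all genes tested. WT replicate 11 was the lowest library for 7 of the 9, all but Rsad2 and Usp18, and for 17.2% of all genes. In log2 CPM around each gene's average over libraries, the mean of the 9 was 0.54 in ++Oxtr replicate 9 and -0.20 and -0.15 in ++Oxtr replicates 7 and 8. It was 0.07, -0.40 and 0.15 in WT replicates 10, 11 and 12. The group means of this value, -0.06 in WT and 0.06 in ++Oxtr, lay closer together than the libraries of either group, whose SD was 0.30 and 0.41.

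**Figure D3:**
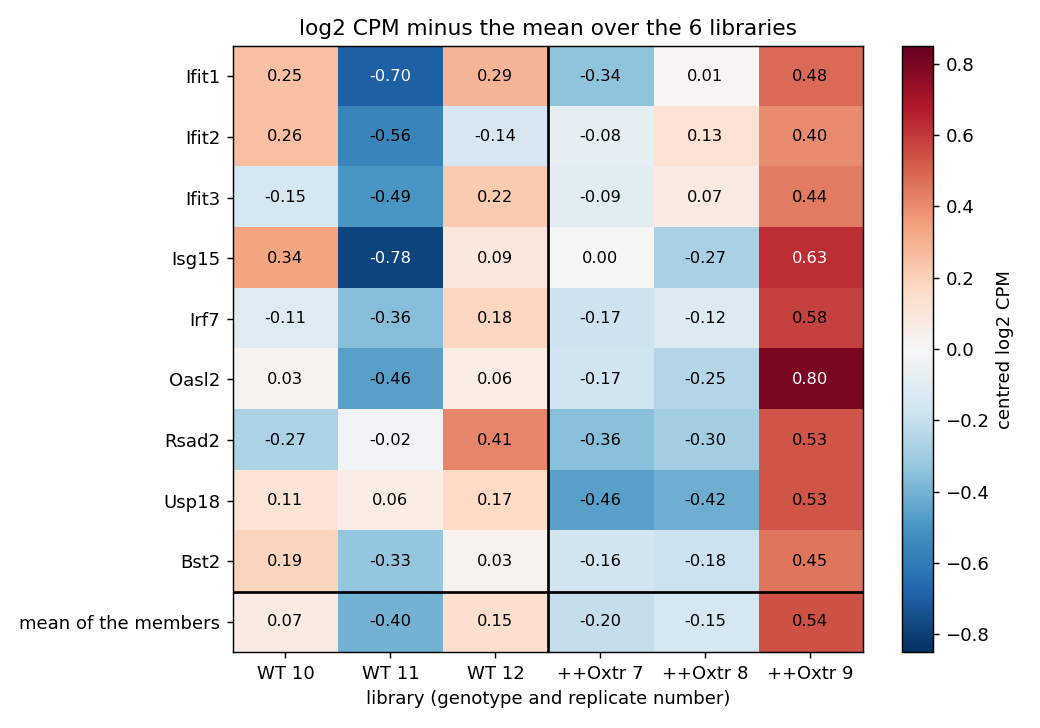
Log2 CPM of each gene minus its average over the 6 libraries, with red above and blue below that average and the value printed in each cell. The last row is the mean of the 9 genes. The column of ++Oxtr replicate 9 is above average throughout, from 0.40 in Ifit2 to 0.80 in Oasl2, and that of WT replicate 11 is lowest in Isg15, at -0.78.

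The 9 genes followed each other over the 6 libraries to different degrees. Over the 36 pairs Pearson's r of log2 CPM had a median of 0.79. It was highest for Irf7 with Oasl2 (0.96) and for Oasl2 with Bst2 (0.95). It was lowest for Ifit2 with Rsad2 (0.14) and for Ifit2 with Usp18 (0.26). Rsad2 and Usp18 followed each other at 0.84. These are descriptions over 6 libraries that share depth and tissue makeup, and the high value in ++Oxtr replicate 9 enters every pair.

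Among 13119 other genes with at least 1 CPM, those whose levels were most like the mean of the 9 were Phf11b (r = 0.996), Zc3h10, Rsrp1, Apol9b, Fam167b, Hs3st1, Birc3, Trmt1, Itgb3 and Atp8a1 (r = 0.986), over 6 libraries. An r above 0.9 was reached by 180 genes. Phf11b was at 6.31, 4.99 and 6.42 CPM in WT and at 5.53, 5.47 and 7.69 CPM in ++Oxtr. Apol9b was at 5.25, 3.33 and 5.64 CPM in WT and at 3.83, 3.75 and 8.37 CPM in ++Oxtr. All 10 were highest in ++Oxtr replicate 9 and lowest in WT replicate 11, an order that choosing them by r largely fixes. None of the 10 (0) was in the wider list of interferon-stimulated genes. That list holds 46 genes chosen by name, so absence from it does not show that a gene is not induced by interferon.

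Markers of some immune cells, but not of all, were also highest in that library. The summed level of 13 T and natural killer cell markers was 75.7 CPM in ++Oxtr replicate 9 and 16.9 to 31.8 CPM in the other 5 libraries. The sum of 6 B cell markers was 16.1 CPM there and 4.87 to 12.3 CPM elsewhere, that of 7 neutrophil markers 51.1 CPM against 10.2 to 36.7, and that of 7 conventional dendritic cell markers 69.9 CPM against 51.9 to 63.6. Of the T and natural killer cell markers none was at 0 throughout. Ifng, the gene of interferon gamma, had 3 reads in ++Oxtr replicate 9, 1 read in WT replicate 10 and 0 in the other libraries. The sum of 10 macrophage markers, the most abundant of these classes, was 1532 CPM in ++Oxtr replicate 9, below the 1652 to 2045 CPM of WT, and 0 of the 10 were highest there. The sum of 9 markers of plasmacytoid dendritic cells, known as strong interferon producers, was 194 CPM in ++Oxtr replicate 9 against 191 to 213 CPM elsewhere. A sum follows its most abundant genes, and 2 of the 9 were at 0 in some library. With equal weight, the 6 tested markers had a mean centred log2 CPM of 0.27 in ++Oxtr replicate 9. This mean was -0.44 and -0.17 in ++Oxtr replicates 7 and 8 and 0.11, -0.07 and 0.30 in WT replicates 10, 11 and 12. The part of these cells in the members' levels was not tested.

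The upstream part of the pathway gave no difference that passed. All 11 listed type I and III interferon genes, among them Ifnb1 and Ifna4, had 0 reads in all 6 libraries, which allows up to 0.156 to 0.210 CPM per library as 3 counts, for counting error only. Of 8 tested receptor and kinase genes 4 were on each side of 0, and 0 had an unadjusted p under 0.05. Ifngr1, a receptor chain for interferon gamma and the most abundant of them, had a log2 fold change of -0.19 (SE 0.11). Jak1, the kinase shared by the receptors, had one of -0.11 (SE 0.08). Ifnar1 and Ifnar2 were at 81.9 ± 2.77 and 49.0 ± 0.85 CPM in WT and at 78.3 ± 5.32 and 47.1 ± 2.67 CPM in ++Oxtr (SD, n = 3).

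No transcription factor of the response passed. Of 8 tested, 4 were on each side, 0 had an unadjusted p under 0.05, and the median log2 fold change was 0.00 (0.00496). Stat2 and Irf9 act together in ISGF3. The log2 fold change was 0.01 (SE 0.16) for Stat2 and -0.00 (-0.00352, SE 0.16) for Irf9. Irf3, which starts interferon transcription after nucleic acid sensing and was the most abundant of the 8, had a mean of 13.6 FPKM, and Irf1, a factor induced by interferon gamma, a log2 fold change of -0.07 (SE 0.08). Irf5, a factor downstream of Toll-like receptors in myeloid cells, had the lowest value, -0.45 (SE 0.23, edgeR adjusted p = 0.619), with 23.4, 20.1 and 26.0 CPM in WT and 13.0, 14.8 and 23.4 CPM in ++Oxtr.

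Among 15 tested sensors and adaptors of nucleic acid, the unadjusted p was under 0.05 for 1 higher and 1 lower gene, a share near that of all genes (4.44% higher and 4.47% lower). Trim25, a ubiquitin ligase of the RNA helicase pathway and the most abundant of them, had a mean of 20.4 FPKM. Tlr7, the endosomal receptor of single-stranded RNA, was at 18.7, 19.2 and 24.7 CPM in WT and at 13.4, 15.4 and 14.5 CPM in ++Oxtr. Its groups did not overlap, and its log2 fold change of -0.53 (SE 0.15) had an edgeR adjusted p of 0.393. Mavs, the mitochondrial adaptor of the RNA helicases, was at 50.4, 51.0 and 53.2 CPM in WT and at 64.1, 64.8 and 55.1 CPM in ++Oxtr (log2 fold change 0.25, SE 0.09, edgeR adjusted p = 0.492). Beside these values of Tlr7 and Irf5, the sum of 10 macrophage markers was 1652 to 2045 CPM in WT and 1296 to 1532 CPM in ++Oxtr, with none of the 10 at 0 reads. All 10 had a log2 fold change under 0, as did 6671 of the 13566 genes. Of the 10, 6 had an unadjusted p under 0.05, where 4.47% of all genes were lower at that threshold. The groups did not overlap in 5, against 7.61% of all genes that were lower without overlap. After adjustment 0 passed by edgeR, where 0% of all genes passed, and 2 by DESeq2, which called 0.708% of all genes lower. The part of macrophages in these values was not tested.

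Of the genes that attach and remove Isg15, Uba7, the activating enzyme, was at 53.7, 40.6 and 45.6 CPM in WT and at 60.6, 56.0 and 66.4 CPM in ++Oxtr. The groups did not overlap, and its log2 fold change of 0.39 (SE 0.12) had an edgeR adjusted p of 0.451. Ube2l6, which carries Isg15 to its ligase, and Herc6, the ligase in mice, were at -0.00 (-0.00438, SE 0.17) and 0.13 (SE 0.33). Of 12 brakes on the pathway, 2 had an unadjusted p under 0.05, both lower, where 4.47% of all genes were. These were Pias1, a SUMO ligase that dampens the pathway, at -0.23 (SE 0.08), and the phosphatase gene Ptpn11 at -0.36 (SE 0.14), with edgeR adjusted p of 0.496 and 0.512. The count of lower genes was 0 without WT replicate 11 or ++Oxtr replicate 8, and 1 without any other single library. Without ++Oxtr replicate 8, 1 gene of this list was higher at that threshold.

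A wider list of 45 tested interferon-stimulated genes was on the higher side in 28, with a median log2 fold change of 0.11, where 50.8% of all genes were on that side. With an unadjusted p under 0.05 there were 2 higher genes and 1 lower, a share no larger than the 4.44% and 4.47% of all genes, and 29 of the 45 were highest in ++Oxtr replicate 9. Without that library the median was -0.11, with 2 higher genes and 2 lower. The genes with the smallest p went in opposite directions. Ifi27l2a, a small interferon-inducible membrane protein gene and the most abundant of the list, was at 824, 738 and 462 CPM in WT and at 395, 323 and 340 CPM in ++Oxtr. The log2 fold change of -0.94 (SE 0.21) had an edgeR adjusted p of 0.347, and DESeq2 gave one of 0.00219.

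Ifi27, its relative, was at 256, 263 and 274 CPM in WT and at 321, 314 and 325 CPM in ++Oxtr, a log2 fold change of 0.28 (SE 0.08). The edgeR adjusted p was 0.412, and DESeq2 gave one of 0.0472. DESeq2 called 0.693% of all genes higher and 0.708% lower. With each library left out in turn, the DESeq2 adjusted p of Ifi27l2a ran from 1.37e-11 to 0.0492 and that of Ifi27 from 0.0783 to 0.195. In neither gene did the groups overlap. Ifi27 varied little inside either group, with an SD of 8.93 CPM in WT and 5.26 CPM in ++Oxtr (n = 3). The third gene under an unadjusted p of 0.05 was Uba7, given above.

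**Figure D4:**
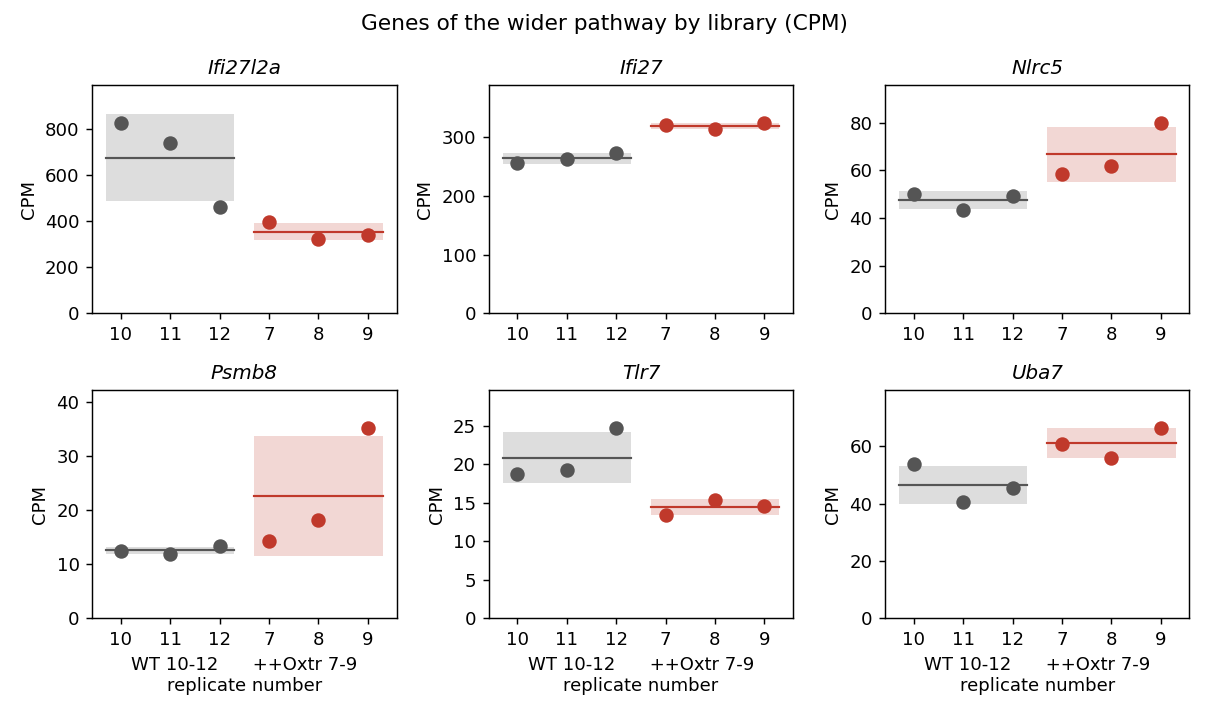
Level in CPM by library, on linear axes from 0, of 6 genes of the wider pathway, drawn as for the members. Ifi27l2a and Tlr7 are lower in each ++Oxtr library than in each WT library, and Ifi27, Nlrc5, Psmb8 and Uba7 are higher. Psmb8 has its highest point, 35.2 CPM, in ++Oxtr replicate 9.

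Most genes known as targets of interferon gamma, and all those listed for antigen presentation by MHC class I, were on the higher side. Of 21 tested targets of interferon gamma 17 had a log2 fold change above 0, with a median of 0.35. An unadjusted p under 0.05 was found for 6 higher genes and 0 lower ones, against 4.44% and 4.47% of all genes, and 0 passed by edgeR or DESeq2 after adjustment. The 6 were Ciita, Gbp5, Igtp, Irgm2, Iigp1 and Tgtp2. The groups did not overlap in 5 higher genes and 1 lower gene of the list, against 7.45% and 7.61% of all genes. Without ++Oxtr replicate 9 the median was 0.07, and 1 gene was higher and 4 lower at that threshold. Leaving out WT replicate 10, 11 or 12 gave 2, 1 and 3 higher genes, and limma on log2 FPKM gave 0. With ++Oxtr replicate 7 or 8 left out there were 7 and 8. Of the 21 genes 18 were highest in ++Oxtr replicate 9, the library with 75.7 CPM of T and natural killer cell markers, whose part in these values was not tested.

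Ciita, the coactivator of MHC class II genes, was at 9.79, 13.2 and 14.2 CPM in WT and at 17.7, 15.2 and 19.2 CPM in ++Oxtr (log2 fold change 0.49, SE 0.18). Each ++Oxtr library lay above each WT library. Iigp1, a GTPase that acts against intracellular parasites, was at 48.2, 48.8 and 49.7 CPM in WT and at 54.7, 67.1 and 135 CPM in ++Oxtr (log2 fold change 0.81, SE 0.33). Without ++Oxtr replicate 9 its value was 0.31. Tgtp2, another such GTPase, had 0.87 (SE 0.35) and 0.44 without that library, and it shares 86.6% of its stretches of 50 bases with other genes, chiefly its copy Tgtp1, so its count is uncertain. Igtp shares 11.8% of such stretches with other genes and Irgm2 7.83%, mostly with each other. Cd74, the invariant chain of MHC class II and the most abundant of the list, was at -0.04 (SE 0.22).

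All 14 tested genes of MHC class I presentation had a log2 fold change above 0, with a median of 0.25, and all 14 were highest in ++Oxtr replicate 9. At an unadjusted p under 0.05, 4 were higher (Nlrc5, Psmb8, Tap1 and Tap2), where 4.44% of all genes were, and the groups did not overlap in 5, these and Psmb9, where 7.45% of all genes were higher without overlap. None passed after adjustment by edgeR or DESeq2. Nlrc5, the coactivator of MHC class I genes, was at 50.2, 43.2 and 49.1 CPM in WT and at 58.4, 61.9 and 79.9 CPM in ++Oxtr, a log2 fold change of 0.49 (SE 0.13, edgeR adjusted p = 0.393). Without ++Oxtr replicate 9 it was 0.34.

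Psmb8, a subunit of the immunoproteasome, was at 12.4, 11.9 and 13.3 CPM in WT and at 14.3, 18.2 and 35.2 CPM in ++Oxtr, and Tap1, a subunit of the peptide transporter, at 51.5, 52.6 and 49.3 CPM and at 55.8, 64.0 and 94.4 CPM. Their log2 fold changes were 0.84 (SE 0.32) and 0.48 (SE 0.19), and 0.37 and 0.23 without ++Oxtr replicate 9. B2m, the light chain of MHC class I and the most abundant of the list, had one of 0.06 (SE 0.14). The median of the list without that library was 0.07, with 1 gene, Nlrc5, under an unadjusted p of 0.05. Leaving out WT replicate 10, 11 or 12 also left 1 gene, as did limma on log2 FPKM. With ++Oxtr replicate 7 or 8 left out there were 4 and 5. Psmb8 shares 11.9% of its stretches of 50 bases with other genes, Tap2 11.6% and Tap1 3.33%. The lists were not tested against each other, so no difference between them and the 9 members is claimed.

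**Figure D5:**
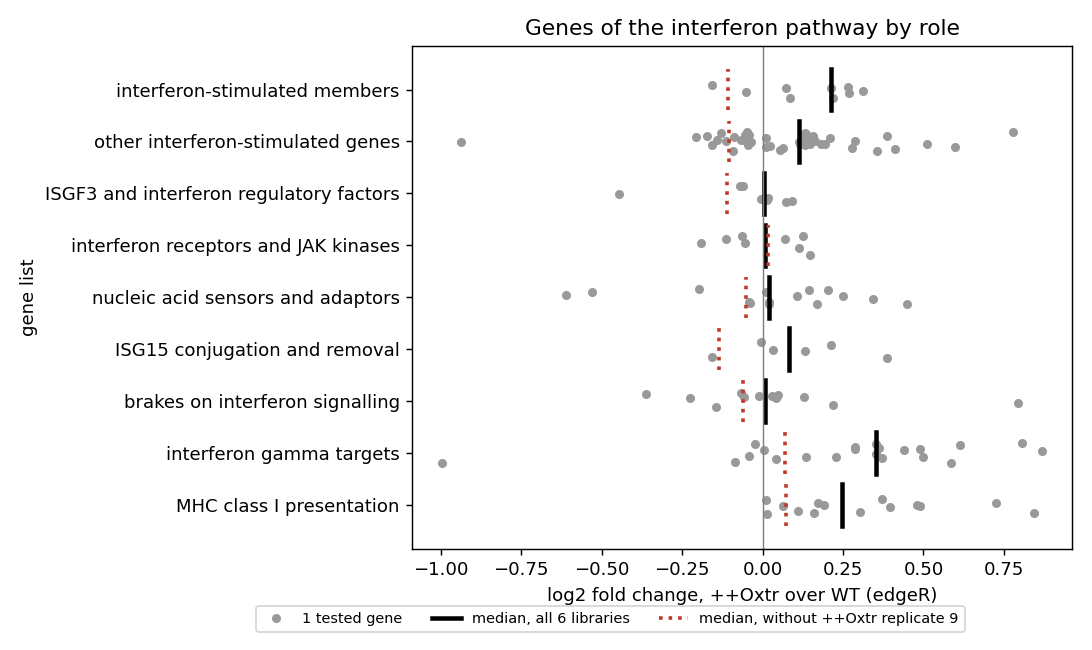
Log2 fold change of ++Oxtr over WT by edgeR for each tested gene (grey points, spread vertically for legibility), by gene list. Black bars are medians with all 6 libraries and red dotted bars medians without ++Oxtr replicate 9. For the 9 members the median goes from 0.21 to -0.11, for targets of interferon gamma from 0.35 to 0.07 and for MHC class I presentation from 0.25 to 0.07.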

How the data were processed

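Per the file headers, the authors deposited 1 table that holds a count and an FPKM for each gene in each library. Libraries were made from Trizol-extracted total RNA with a NEBNext Ultra II kit (labels' protocols). The build mm10 stands in the submitters' processing notes. Aligner, counter, strand setting and annotation were not given in the sources used here. The authors' FPKM equals the count divided by the Length column and the library total (largest relative error 5.15e-15). Gene length in bases is the other deposited value used. Counts per library ran from 14314517 to 19186696.

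Counts were tested with edgeR 4.0.16 in R 4.3.3 (TMM, filterByExpr, robust quasi-likelihood fit, no covariates, Benjamini-Hochberg over 13566 genes, threshold 0.05). Centred levels are log2 CPM with a prior count of 2. Alternatives were DESeq2 1.42.0, limma 3.58.1 (voom with quality weights, and log2 of FPKM plus 0.5 or 0.1), other scaling factors and filters, and each library left out. DESeq2 with each library left out was added for Ifi27l2a and Ifi27 after their values were seen. On simulated counts, edgeR, DESeq2 and limma-voom were checked for the direction of large changes. Differences as small as those of the members were not simulated. Within groups, libraries differed by 18.2 to 50.7 times the sampling noise, so none was a copy.

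The members and lists were chosen with earlier results of these data known. Of each pathway list the text names the genes with the smallest p, the most abundant gene and those with an unadjusted p under 0.05; Ifnar1, Ifnar2, Stat2, Irf9, Ube2l6, Herc6, Ifit3b, Psmb9 and Ifng were named outside this rule, after their values were seen. Sequences come from RefSeq tables on GRCm38.p6.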

Additional observations from a re-analysis of the deposited data

How the results depend on the processing

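No paired analysis was possible because replicate numbers differ between the groups. With edgeR and limma 0 genes passed an adjusted p of 0.05 in each setting (edgeR's unadjusted p was under 0.05 for 603 higher and 606 lower genes), while DESeq2 called 94 higher and 96 lower. No member passed in any of the 14 settings, and the smallest adjusted p of a member was 0.426. In edgeR with 1 library left out, the median log2 fold change of the 9 ran from -0.11 to 0.29, and 0 genes passed throughout. The log2 fold change ran from -0.18 to 0.25 for Ifit1, from -0.16 to 0.20 for Bst2, from -0.089 to 0.45 for Isg15, from -0.066 to 0.37 for Irf7, from -0.11 to 0.50 for Oasl2, from -0.40 to 0.16 for Rsad2 and from -0.56 to 0.017 for Usp18. Ifit2 ran from 0.10 to 0.50 and Ifit3 from 0.10 to 0.47. With limma-voom Ifit1 was at -0.10 and Bst2 at -0.026, and the median of the 9 was 0.02; the cause was not tested. Reads of Ifng (0 to 3 a library) and of the interferon genes (0) were too few for a comparison.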

Other observations

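Trim30d and Xaf1 of the wider list of interferon-stimulated genes were highest in WT replicate 12 and not, like the members, in ++Oxtr replicate 9. They are not the only ones of that list and were chosen after their values were seen and are given without explanation. Trim30d, of a cluster of Trim30 genes that modulate innate signalling, had 184, 10 and 237 reads in WT replicates 10, 11 and 12 and 221, 85 and 132 reads in ++Oxtr replicates 7, 8 and 9. Its CPM spanned a 22.4-fold range from WT replicate 11, the lowest library as for most members, to WT replicate 12. It shares 7.49% of its stretches of 50 bases with other genes, mostly Trim30a. Xaf1, a pro-apoptotic interferon-induced gene, was at 54.7 CPM in WT replicate 12 and at 19.4 to 35.5 CPM in the other libraries.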
